A study of Mus musculus with 4 samples.

Results

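The genes described here make cholesterol and fatty acids and store the products: 38 mouse genes chosen by name for their textbook role in sterol sensing, sterol synthesis, fatty acid synthesis and modification, acyl-CoA ligation and lipid storage. The rule goes by gene names, and it was set with earlier results of these arrays known. Of the 38 genes, 34 had at least 1 probe that names them alone, out of 15369 genes with such a probe on the array. Between them these 34 genes had 37 probes, and 32 of the genes were detected on every array used. Srebf2, Acaca, Acsl3 and Scd2 had no probe of their own. Scd2, a stearoyl-CoA desaturase, was named only on a probe shared with Scd3, which gave, as relative signal, 64.3 on B16, 76.2 on B16-RI, 77.3 on B16-RII and 62.8 on B16-RIIL.

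Cells build cholesterol from acetyl-CoA through the mevalonate pathway, squalene and lanosterol, and they build fatty acids from the same precursor through acetyl-CoA carboxylase and fatty acid synthase. Both routes are switched on by the sterol regulatory element binding proteins, which the escort protein Scap carries to the Golgi when sterol is short and which the Insig proteins hold back in the endoplasmic reticulum when sterol is plentiful. Fatty acids are joined to coenzyme A before they are lengthened, desaturated, burned or stored as triglyceride in droplets, and proliferating tumour cells draw on both routes for membranes.

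The study compared cultured mouse melanoma lines that had been passed through mice to select for spread. B16, the parental line, was B16F1 melanoma of C57BL6 origin, kept in culture. B16-RI was grown out of lymph node metastases that formed after B16F1 had been injected into the skin, and B16-RII and B16-RIIL came from lymph node and lung metastases of mice injected with B16-RI. All 4 lines were grown in DMEM with fetal bovine serum, no drug was given, and RNA was taken from cultured cells and not from tumours. Each passaged line is a recultured population from metastases, and the RNA of each line was a pool of different passage numbers. The labelled cRNA was hybridised to an Applied Biosystems mouse array, on which each probe gives 1 chemiluminescence signal, and 1 array per line was used here. The study's methods describe duplicate cultures of each line, but the second arrays matched no labelled sample and were not used. No difference in this report therefore has a replicate check, no test between lines could be run, and precision is limited by having so few arrays.

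A probe was taken as detected when its signal-to-noise ratio (S/N) was at least 3 and its quality flag at most 5000. Between 13872 and 14855 of the 33012 probes passed on each array, that is 42.0% to 45.0%, and 33 or 34 of the 34 measured genes passed. The deposited normalized signals were found to hold 2 sets of probes, each divided by its own constant, and the median of the probes detected on every array lay above B16 by 0.39 log2 units in the first set and 0.07 in the second on B16-RI. The corresponding medians were 0.41 and 0.42 on B16-RII and 0.46 and -0.01 on B16-RIIL. Each signal was therefore divided by the median, on the same array, of the detected probes of its own set, and this ratio is called the relative signal below. The sets held 18 and 16 of the genes described here. A relative signal compares 1 probe between lines and does not rank different genes. Fewer cells with a transcript and less of it in each cell cannot be told apart in RNA of whole cultures.

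The arrays carried the melanocyte signature of the parental tumour. All 6 melanocyte genes with a probe, among them Dct, Tyr and Tyrp1, were detected on all 4 arrays. The sum of their relative signals was highest for B16 at 418, followed by 389 for B16-RI, 383 for B16-RII and 363 for B16-RIIL. Nearly all of this sum came from Tyrp1, Dct, Si and Slc45a2, at 171, 133, 61.6 and 51.3 on B16, with 0.694 from Tyr and 0.415 from Mitf. Of 5 adipocyte genes, Plin1 was detected on all 4 arrays, Fabp4 on B16 alone, and Adipoq, Lep and Cfd on none, and the summed relative signal of the list ran from 0.246 to 0.395. The lists for lymphocytes, macrophages, fibroblasts, endothelium and lung epithelium summed to between 0.101 and 0.974. From these lists Cd2, Lck, Lyzs and Col1a2 were detected on all 4 arrays, and Csf1r, Col1a1, Pecam1, Epcam and Scgb1a1 on some of them. Ptprc, Cd79b, Cd68, Emr1, Col3a1, Pdgfra, Dcn, Cdh5, Kdr, Tek and Sftpc were detected on none. Since a relative signal does not rank different genes, the sums of different lists are not compared with each other. The part of other cell types in the lipid gene values was not tested.

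To show where these genes lie in the genome and what they share upstream, promoter windows of 250 bases before to 50 bases after the transcription start were taken from RefSeq (GRCm38.p6), which listed 30 of the 38 genes. The windows were searched on both strands for CCAAT, the box bound by NF-Y, and for TCACNCCAC, a form of the sterol regulatory element. CCAAT occurred in 24 of the 30 genes, beside 41.1% of 27025 genes in the table with 300-base windows. Counted by window, since a gene can have several, the share was 62.5% of 40 windows beside 37.4% of 32851. CCAAT occurred in all 13 genes of the cholesterol synthesis group that were listed. The share was 4 of 5 for sterol sensing, 4 of 7 for fatty acid synthesis and 3 of 5 for ligation and storage. TCACNCCAC occurred in 2 of the 30, beside 1.44% of all genes: in Hmgcs1 at -137 and in Acsl1 at -76 from the start. A match describes letters only, and a window without one says nothing of the factor. The 150 bases before the start are shown for 3 genes that were above B16 in every passaged line under each scaling tried, with the motifs on either strand in capitals (ATTGG is CCAAT read on the other strand).

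Hmgcs1, chr13:119690201-119690350, plus strand, build GRCm38.p6: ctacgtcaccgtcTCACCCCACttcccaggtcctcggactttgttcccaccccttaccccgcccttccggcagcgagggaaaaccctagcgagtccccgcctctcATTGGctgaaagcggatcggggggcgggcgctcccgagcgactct

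Msmo1 (Sc4mol on the array), chr8:64733579-64733728, minus strand, build GRCm38.p6: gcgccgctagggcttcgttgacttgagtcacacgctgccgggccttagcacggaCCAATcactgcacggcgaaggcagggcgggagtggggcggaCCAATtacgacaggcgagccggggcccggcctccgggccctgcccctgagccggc

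Fasn, chr11:120824548-120824697, minus strand, build GRCm38.p6: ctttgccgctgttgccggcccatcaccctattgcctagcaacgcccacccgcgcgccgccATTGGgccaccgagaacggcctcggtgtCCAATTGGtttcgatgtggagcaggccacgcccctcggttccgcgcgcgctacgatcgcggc

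In the Fasn stretch the run CCAATTGG holds a match on each strand, and these overlap.

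Against B16, 3 of the 34 measured genes were called in at least 1 passaged line. A gene was called when its relative signals were at least 2-fold apart and its probe was detected on the brighter array. On B16-RI, 1 gene was called higher, beside 6.15% of the 9183 genes tested, and 0 were called lower, beside 8.68%. On B16-RII, 1 was called higher and 0 lower, beside 5.86% and 8.32% of all genes. On B16-RIIL, 1 was called higher and 2 lower, beside 7.02% and 7.55%. The gene called higher was 1110028A07Rik on each of the 3 arrays, and the 2 called lower were Dgat2 and Acsl4. None of the 16 cholesterol synthesis genes, the 8 measured fatty acid synthesis genes or the 4 measured sterol sensing genes was called against B16 under the scaling used here. Under other scalings some were: Insig1 and Sc5d were higher on B16-RII and Fasn on B16-RIIL with the deposited values, at 1.10, 1.05 and 1.01 log2 units. Division by the array median added Sc4mol on B16-RII and Mvd on B16-RIIL, at 1.01 and 1.03, and kept Sc5d and Fasn. Hsd17b7 was lower on B16-RIIL under quantile normalization and the 75th percentile, at -1.04 and -1.01, and Fdps under the latter, at -1.05. These 3 comparisons share the B16 array, so a high or low value there enters all of them.

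At a limit of 1.5-fold, 6 of the 34 genes were higher and 3 lower on B16-RI, beside 10.8% and 14.9% of all genes. On B16-RII, 3 were higher and 0 lower, beside 11.9% and 14.5%, and on B16-RIIL 2 were higher and 5 lower, beside 13.6% and 14.1%. The differences that stayed within 1.5-fold of B16 numbered 25, 31 and 27 of 34, beside 74.1%, 73.2% and 71.8% of all genes. After the centring, which puts the median log2 relative signal of the probes detected throughout at 0 on every array, over the 34 genes B16-RI differed by a median of 0.03 log2 units, B16-RII by 0.03 and B16-RIIL by 0.06, beside 0.02, 0.01 and -0.00 over all genes tested. As a yardstick for probe error, 487 genes had 2 probes detected on every array. Their differences from B16 disagreed between the 2 probes by a median of 0.22 to 0.30 log2 units, and 1 gene in 10 disagreed by more than 0.74 to 0.83. This disagreement carries the error of both probes, and the standard deviation for 1 probe derived from it was 0.33 to 0.37. The median size of the lipid gene differences, regardless of sign, was 0.38, 0.28 and 0.33 log2 units in the same order of lines, beside 0.28, 0.30 and 0.33 over all genes. The disagreement of probes does not include the spread between cultures.

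**Figure D1:**
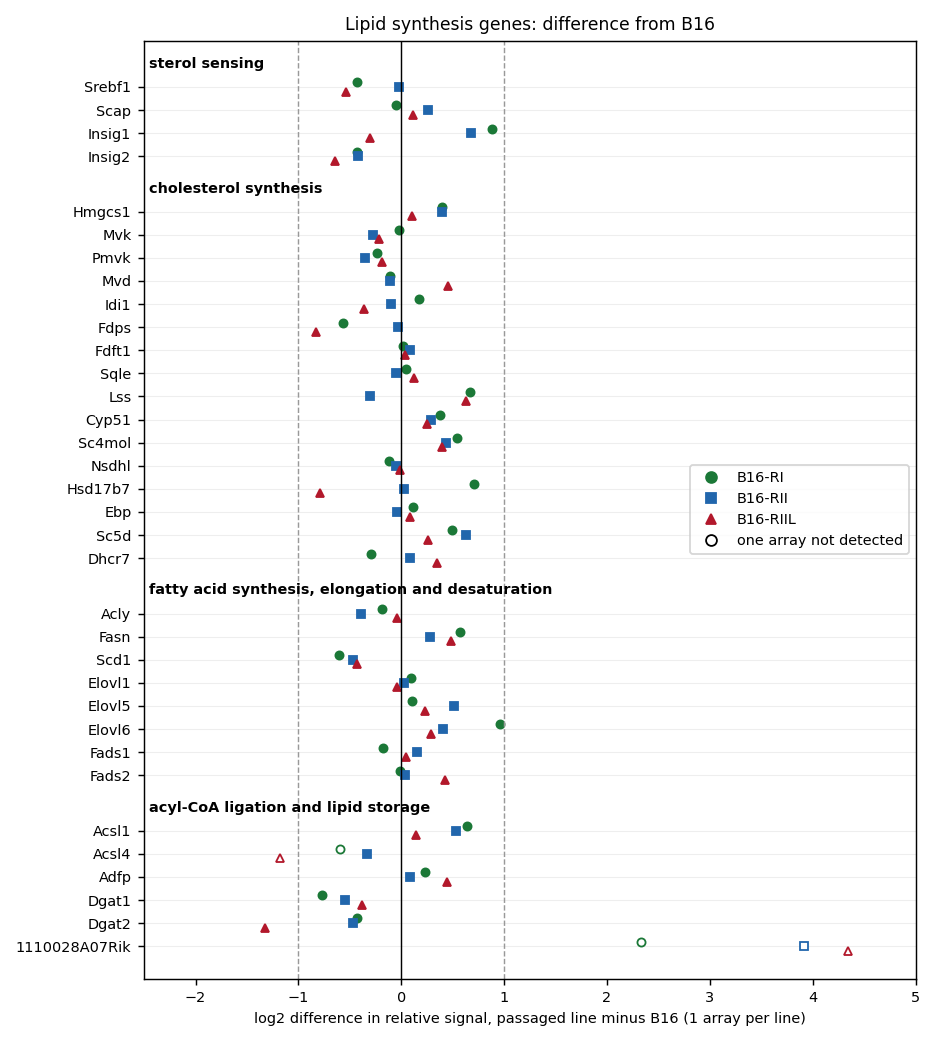
Log2 difference in relative signal of each passaged line from B16 (x axis) for the 34 measured genes, grouped by role (y axis), with circles for B16-RI, squares for B16-RII and triangles for B16-RIIL; an open symbol marks a probe not detected on 1 of the 2 arrays and dashed lines mark 2-fold. Only 1110028A07Rik lies beyond the upper line, at 2.33, 3.91 and 4.34, and only Dgat2 and Acsl4, both on B16-RIIL, lie beyond the lower one.

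Among the genes of sterol sensing, Insig1 differed most from B16, and it was high in some lines and low in others. Insig1, the retention protein whose own transcript is a known target of the sterol regulatory factors, gave, as relative signal, 2.85 on B16, 5.26 on B16-RI, 4.56 on B16-RII and 2.32 on B16-RIIL. It was thus high in both lines from lymph nodes and low in the parental line and the line from lung, 1.85-fold above B16 on B16-RI, 1.60-fold above on B16-RII and 1.23-fold below on B16-RIIL. These 3 directions were kept under all 5 scalings tried. Insig2, the second retention protein, gave 2.33 on B16, 1.72 on B16-RI, 1.74 on B16-RII and 1.49 on B16-RIIL. It was highest on B16, and a second Insig2 probe gave the same directions at 0.390, 0.261, 0.240 and 0.224. On B16-RII, however, the difference of the first probe changed sign with the deposited values, at 0.01 log2 units, and with division by the array median, at 0.16. Srebf1, which encodes the factor most tied to fatty acid genes, gave 12.7 on B16, 9.42 on B16-RI, 12.5 on B16-RII and 8.75 on B16-RIIL. Its lowest value was in the line from lung, where the sign of the difference from B16 also depended on the scaling. Scap, the escort protein, gave 13.7 on B16, 13.2 on B16-RI, 16.4 on B16-RII and 14.8 on B16-RIIL and differed least of the group.

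The cholesterol synthesis genes split in both directions, and the median difference of the group from B16 was 0.08 log2 units for B16-RI, -0.04 for B16-RII and 0.09 for B16-RIIL. At the entry of the pathway, Hmgcs1, which makes hydroxymethylglutaryl-CoA, gave, as relative signal, 4.73 on B16, 6.21 on B16-RI, 6.21 on B16-RII and 5.09 on B16-RIIL. It was above B16 in every passaged line, by 0.39, 0.39 and 0.11 log2 units. The mevalonate enzymes that follow, Mvk, Pmvk and Mvd, lay between -0.36 and 0.46 log2 units of B16. Mvd, the decarboxylase, was the highest of these differences, at 0.46 on B16-RIIL. Idi1, the isopentenyl diphosphate isomerase, had 2 probes that differed in direction on B16-RII, at -0.10 and 0.16, and on B16-RIIL, at -0.36 and 0.00.

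Fdps, which makes farnesyl diphosphate, gave 0.200 on B16, 0.135 on B16-RI, 0.195 on B16-RII and 0.112 on B16-RIIL. It was low on B16-RI and on B16-RIIL, 1.48-fold and 1.78-fold below B16, and its S/N ran from 3.41 to 8.05, close to the detection limit. Fdft1 and Sqle, the squalene synthase and the squalene epoxidase, were among the flattest genes. Fdft1 ran from 2.99 to 3.17, and Sqle gave 6.65 on B16, 6.88 on B16-RI, 6.4 on B16-RII and 7.26 on B16-RIIL. Lss, the lanosterol synthase, gave 0.0914 on B16, 0.145 on B16-RI, 0.0741 on B16-RII and 0.142 on B16-RIIL. Its values fell into a high pair, B16-RI and B16-RIIL, at 1.59-fold and 1.55-fold of B16, and a low pair, B16 and B16-RII. Its S/N of 4.72 to 6.85 was also low.

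Past lanosterol, Cyp51 and Sc4mol were above B16 in all 3 passaged lines. Sc4mol, the sterol C4-methyl oxidase, gave 5.87 on B16, 8.52 on B16-RI, 7.91 on B16-RII and 7.69 on B16-RIIL. Its differences from B16 were 0.54, 0.43 and 0.39 log2 units, and Cyp51, the lanosterol demethylase, differed by 0.38, 0.29 and 0.25. The signs for Sc4mol were kept under all 5 scalings, and those for Cyp51 on B16-RI and B16-RII. Nsdhl, the dehydrogenase of the same step, stayed between -0.12 and -0.02.

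Hsd17b7, the ketoreductase that completes the removal of the C4 methyl groups, had the widest range over the 4 arrays of the 32 genes detected on each. It gave 0.611 on B16, 0.996 on B16-RI, 0.621 on B16-RII and 0.353 on B16-RIIL. B16-RI was the highest array and B16-RIIL the lowest, 1.63-fold above and 1.73-fold below B16, and both directions were kept under all 5 scalings. Ebp, the sterol isomerase, ran from 4.65 to 5.18. Sc5d, the desaturase that follows, gave 1.04 on B16, 1.47 on B16-RI, 1.61 on B16-RII and 1.25 on B16-RIIL. It was highest on B16-RII, 0.62 log2 units above B16. Dhcr7, the last reductase of 1 branch, differed from B16 by -0.29 on B16-RI, 0.09 on B16-RII and 0.35 on B16-RIIL.

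**Figure D2:**
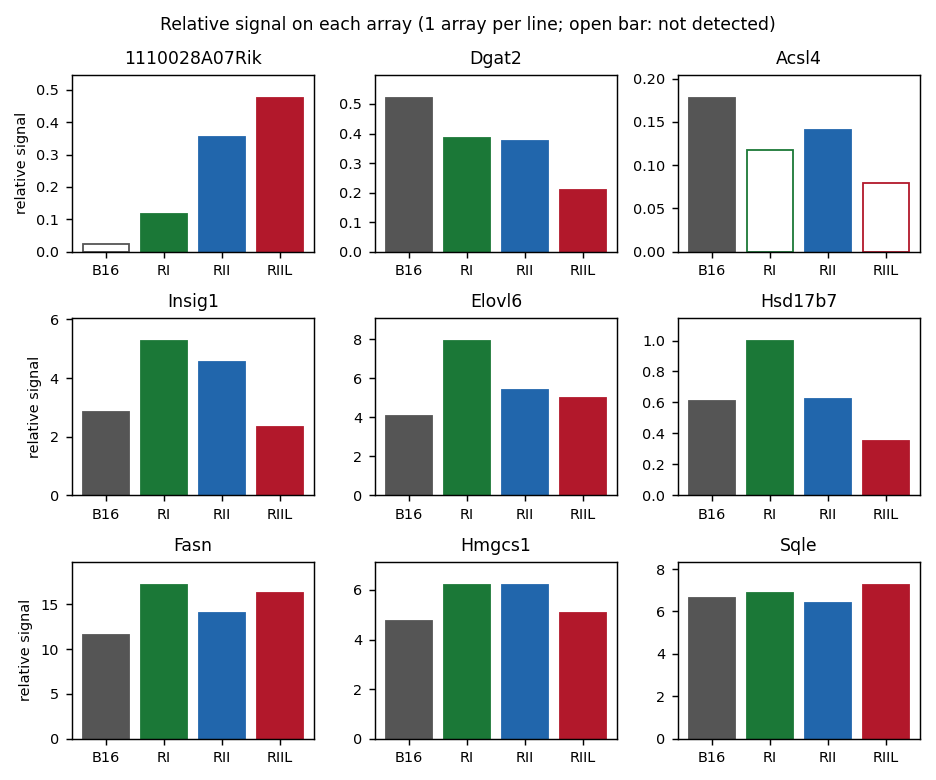
Relative signal (y axis, linear, from 0) of 9 genes on the arrays of B16, B16-RI, B16-RII and B16-RIIL (x axis, RI, RII and RIIL for short), 1 array per line with no error bar; an open bar marks a probe that was not detected. 1110028A07Rik runs from 0.0235 to 0.476, Insig1 is high only on the 2 arrays of lines from lymph nodes, and Sqle stays between 6.4 and 7.26.

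In the fatty acid group, the synthase Fasn and the elongases Elovl5 and Elovl6 were above B16 in all 3 passaged lines, and the desaturase Scd1 and the citrate lyase Acly were below it, but only the signs of Fasn and Scd1 were kept in all 3 lines under the 5 scalings. The probe shared by Scd2 and Scd3, which encode desaturases of the same kind as Scd1, was 1.19-fold and 1.20-fold above B16 on B16-RI and B16-RII, and the sign on B16-RI turned under quantile normalization. Fasn, the fatty acid synthase, gave, as relative signal, 11.6 on B16, 17.2 on B16-RI, 14.1 on B16-RII and 16.2 on B16-RIIL. All 3 passaged lines were above B16, by 0.57, 0.28 and 0.49 log2 units, under all 5 scalings. Elovl6, the elongase that extends palmitate, gave 4.07 on B16, 7.89 on B16-RI, 5.38 on B16-RII and 4.96 on B16-RIIL. B16-RI stood apart at 1.94-fold of B16, just short of the 2-fold limit, and the smaller difference on B16-RIIL changed sign under another scaling. Scd1, the stearoyl-CoA desaturase, gave 0.266 on B16, 0.175 on B16-RI, 0.192 on B16-RII and 0.197 on B16-RIIL. It was highest on B16 under all 5 scalings, and the 3 passaged lines lay 1.52-, 1.39- and 1.35-fold below.

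Acly, the citrate lyase that supplies cytosolic acetyl-CoA, gave 1.21 on B16, 1.06 on B16-RI, 0.918 on B16-RII and 1.17 on B16-RIIL. The lowest value was on B16-RII, 0.40 log2 units below B16, and this sign depended on the scaling. The elongases Elovl1 and Elovl5 differed from B16 by -0.04 to 0.51 log2 units, and the desaturases Fads1 and Fads2, which make polyunsaturated fatty acids, by -0.18 to 0.43. The median of the group was 0.04 on B16-RI, 0.09 on B16-RII and 0.14 on B16-RIIL.

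The ligation and storage genes held the 3 called genes and the largest differences. 1110028A07Rik is Fitm1, a membrane protein of the endoplasmic reticulum that helps triglyceride gather into droplets. It gave, as relative signal, 0.0235 on B16, where it was not detected at an S/N of -0.13, then 0.118 on B16-RI, 0.353 on B16-RII and 0.476 on B16-RIIL. The signal rose in the order B16, B16-RI, B16-RII and B16-RIIL. Taken against the undetected B16 signal, it was 5.02-fold higher on B16-RI, 15-fold on B16-RII and 20.3-fold on B16-RIIL. These folds are not firm minima, since the true B16 level may lie above that signal. On B16-RI the S/N was 3.32, near the detection limit. This order was known from earlier results of these arrays when the genes were chosen, so it is not independent evidence. A related droplet protein, Fitm2, showed no such order, with 0.259, 0.188, 0.182 and 0.241 on the same 4 arrays.

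Dgat1 and Dgat2 encode unrelated enzymes that each add the last fatty acid to triglyceride. Dgat2 gave 0.522 on B16, 0.386 on B16-RI, 0.375 on B16-RII and 0.208 on B16-RIIL. Its value was highest on B16 and lowest in the lung line, 2.51-fold below B16, where the probe carried a quality flag of 64 and an S/N of 4.92. Dgat1 gave 1.53 on B16, 0.898 on B16-RI, 1.05 on B16-RII and 1.17 on B16-RIIL. It too was highest on B16, with a difference of -0.77 log2 units on B16-RI, but its signs on B16-RII and B16-RIIL depended on the scaling.

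Acsl4, the ligase that prefers arachidonic acid, gave 0.178 on B16, 0.118 on B16-RI, 0.141 on B16-RII and 0.0789 on B16-RIIL, and was not detected on B16-RI or B16-RIIL. It was 2.26-fold lower on B16-RIIL than on B16, as a ratio to an undetected signal. A second Acsl4 probe was detected on B16-RII alone, with 0.0672, 0.0670, 0.0766 and 0.0201 in the same order, and its lowest value was on B16-RIIL as well. Acsl1, the general long-chain ligase, gave 0.215 on B16, 0.335 on B16-RI, 0.310 on B16-RII and 0.238 on B16-RIIL. It was high in both lymph node lines, 0.64 and 0.53 log2 units above B16. Adfp, now Plin2, which coats lipid droplets, lay 0.09 to 0.44 above B16.

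Looking gene by gene across the passaged lines, 10 of the 32 genes detected on every array were above B16 in all 3 lines and 10 were below it in all 3. The same shares over the 7308 genes detected on every array were 29.7% above and 25.6% below. With the deposited values as they are, the counts were 20 above and 2 below, beside 56.1% and 6.50% of all genes. Under each of the 5 scalings, 5 genes stayed above B16 in all 3 lines, namely Fasn, Fdft1, Hmgcs1, Sc4mol and Sc5d, beside 19.6% of all genes. Dgat2 and Scd1 stayed below, beside 5.99% of all genes. Fdft1 did so with differences of 0.02 to 0.08 log2 units only. Across the 4 arrays the range of a gene, highest over lowest, had a median of 1.45-fold for the lipid genes and 1.39-fold for all genes, and 3 of 32 reached 2-fold, beside 9.99% of all genes.

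As a description over only 4 arrays, Fasn followed Sc4mol most closely of the other 31 ranked lipid genes, with a Pearson r of 0.91 on log2 relative signals, then Cyp51 with 0.90 and Elovl6 with 0.81. Sqle was most like Lss and Adfp, both with 0.89, and Ebp, with 0.82. The values of Sqle ranged over only 0.18 log2 units, less than the median disagreement of probes of 1 gene. Little can therefore be read from its order of likeness. Each line was the highest array for 5 to 12 of the 32 genes detected throughout, B16-RI for 12, B16 for 10 and B16-RII and B16-RIIL for 5 each. The same counts were not taken over all genes.

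The scaling moved the group as a whole. With the deposited values as they are, 24, 31 and 22 of the 34 genes lay above B16 on B16-RI, B16-RII and B16-RIIL, in place of 18, 18 and 19. The median over the lipid genes was then 0.32, 0.45 and 0.27 log2 units, beside 0.20, 0.44 and 0.26 over all genes. Among all called genes the share called higher moved with it from 41.5% to 53.1% on B16-RI, from 41.3% to 68.9% on B16-RII and from 48.2% to 65.9% on B16-RIIL.

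**Figure D3:**
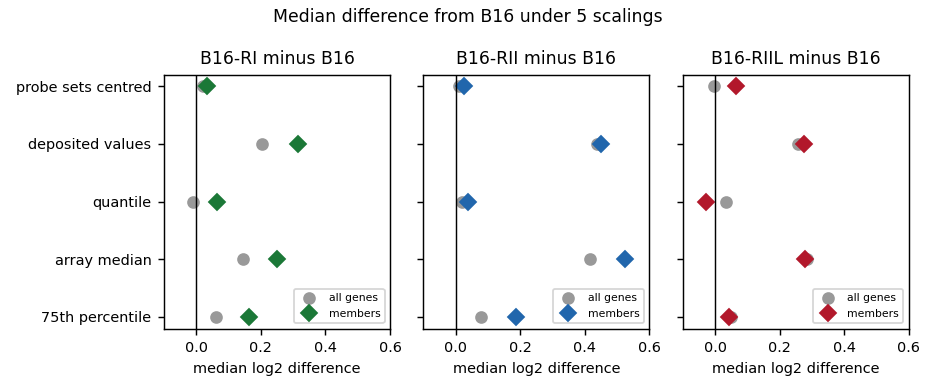
Median log2 difference from B16 (x axis) over the lipid synthesis genes (diamonds) and over all genes tested (grey circles) under 5 ways of scaling the arrays (y axis), with 1 panel per passaged line. The medians of the lipid genes move between -0.03 and 0.52 with the scaling. On B16-RII both kinds of symbol are highest with the deposited values and the array median, and between centring and quantile normalization they move in opposite directions on B16-RI and B16-RIIL.

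The step from lymph node to lymph node and the contrast of lung with lymph node were compared next. Against B16-RI, B16-RII had 1 lipid gene called higher, beside 5.36% of 9204 genes, and 0 called lower, beside 5.61%. The gene was again 1110028A07Rik, 3.0-fold higher. Lss, 1.96-fold below B16-RI, and Hsd17b7, 1.60-fold below, were the 2 genes lower by at least 1.5-fold, beside 9.34% of all genes. The median over the group was -0.02 log2 units.

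Between the 2 lines of the second round, B16-RIIL had 0 genes called higher and 0 called lower than B16-RII, beside 6.63% and 4.97% of 9428 genes. At 1.5-fold, 1 gene was higher and 5 were lower on B16-RIIL, beside 11.8% and 9.92%. The higher gene was Lss, at 1.91-fold. The lower genes were Insig1 at 1.97-fold, Dgat2 at 1.81-fold, Acsl4 at 1.79-fold against an undetected signal, Hsd17b7 at 1.76-fold and Fdps at 1.74-fold. All 4 measured sterol sensing genes were lower on B16-RIIL than on B16-RII, with a group median of -0.37 log2 units beside -0.01 for all genes, although the sign for Scap turned under quantile normalization. With the deposited values as they are, the difference of Insig1 was -1.40 in place of -0.98, while those of Srebf1, Scap and Insig2 were smaller, at -0.42, -0.06 and -0.13. The count of lipid genes called lower was then 5, namely Insig1, Fdps, Hsd17b7, Acsl4 and Dgat2, in place of 0, and the count over all genes was 715 in place of 469.

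Neighbouring genes of lipid handling, from lists set by role, also held called genes. Of 21 other synthesis genes, 10 to 12 could be tested against B16, and 2 were called higher in each of B16-RI, B16-RII and B16-RIIL, beside 6.15%, 5.86% and 7.02% of all genes. In the same order 1, 0 and 0 were called lower, beside 8.68%, 8.32% and 7.55%. Me1, listed as Mod1, is the malic enzyme that supplies NADPH for fatty acid synthesis. It gave 5.02 on B16, 11.3 on B16-RI, 14.3 on B16-RII and 12.0 on B16-RIIL. All 3 passaged lines were at least 2-fold above B16 on each of its 3 probes under the scaling used here. Under quantile normalization 2 of the probes fell short of 2-fold on B16-RI, at 0.82 and 0.94 log2 units, and on B16-RIIL, at 0.94 and 0.95. Thrsp, a nuclear protein tied to lipogenic genes, was detected only on B16-RII and B16-RIIL, 2.54-fold and 4.57-fold above B16. Gpam, the acyltransferase that begins glycerolipid synthesis, was detected only on B16-RI, 2.80-fold above B16, with an S/N of 3.59. Elovl7, an elongase, was 2.13-fold lower on B16-RI, but the other 4 scalings gave -0.69 to -0.90 log2 units, short of a call.

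Of 13 sterol uptake, transport and efflux genes, 9 were tested against B16 in each line, with 0 called higher and 1 lower in each, beside the same shares of all genes. A count of 1 in 9 is near those shares. Nr1h3, the sterol receptor LXR alpha, was detected only on B16, and was 3.06-fold lower on B16-RI and 2.71-fold lower on B16-RIIL. Lrp1, a lipoprotein receptor, was 4.91-fold lower on B16-RII, where it was not detected. Of 11 fatty acid oxidation genes, 9 or 10 were tested, and Cpt1a, which carries fatty acids into mitochondria, was the only call. Against an undetected B16 signal it was 2.10-fold higher on B16-RIIL, beside 7.02% of all genes called higher there. Scaling to the 75th percentile put it at 0.85 log2 units, short of a call.

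Of 11 lipid droplet proteins and lipases, 6 or 7 were tested, with 1 called lower in each line, beside 8.68%, 8.32% and 7.55% of all genes, and 1 called higher on B16-RII, beside 5.86%. Mgll, the lipase that splits monoglycerides, gave 2.06 on B16, 0.648 on B16-RI, 0.759 on B16-RII and 0.250 on B16-RIIL. It was below B16 in all 3 passaged lines, 3.17-, 2.71- and 8.22-fold, and lowest in the lung line. With the array median its difference on B16-RII was -0.86 log2 units, short of a call. Cideb, a droplet protein, was called higher on B16-RII, by 3.10-fold, on a probe not detected on B16. Its second probe was not detected on either of these arrays and lay below B16 on B16-RII. Plin1, the perilipin of fat cells, was not called in any line.

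**Figure D4:**
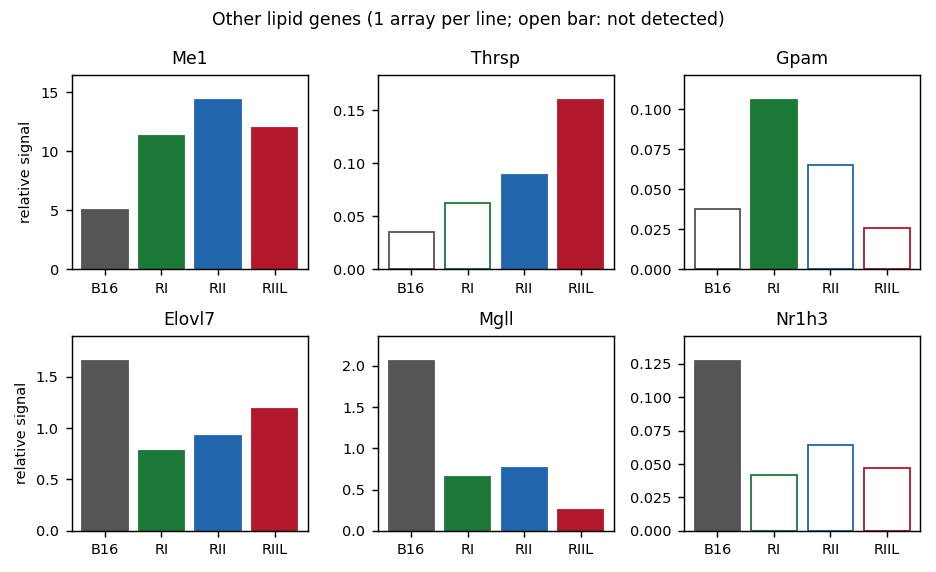
Relative signal (y axis, linear, from 0) of 6 further lipid genes on the arrays of B16, B16-RI, B16-RII and B16-RIIL (x axis, RI, RII and RIIL for short), 1 array per line with no error bar; an open bar marks a probe that was not detected. Me1 is higher on all 3 passaged lines than on B16, and Mgll runs from 2.06 on B16 to 0.250 on B16-RIIL.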

How the data were processed

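RNA of 4 cultured melanoma lines was measured on 1-colour arrays, and the 16 columns used were the raw signal, normalized signal, S/N and flag of 1 array per line. The authors deposited the signal as a raw and a normalized intensity. The deposited normalized intensity was the raw intensity divided by 2 constants per array, although the methods name quantile normalization. The deposited S/N and flag are scores of the analyzer, used at the limits of the study's methods. Another 20 columns of second arrays could be matched to none of the labelled samples and were left out, and 24 columns of derived log2 values and ratios, among them the authors' comparisons, were not used either.

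The genes and lists were chosen with earlier results of these data known. A gene was represented by the probe detected on most arrays, then by the highest mean signal, and 391 probes listed for several genes were left out. Signals on all 4 arrays were given for called genes of the 38, for sterol sensing genes and for the 2 with the largest difference in each direction in each group, and genes of other lists were named where called against B16. Hmgcs1, Sqle, Sc4mol, Sc5d, Dgat1, Me1, Mgll, Fitm2 and the probe of Scd2 were given in full, and Plin1 named, after their values were seen. Where the dimmer array did not detect a probe, the fold was taken against the higher of that probe's signal and the lowest detected signal of the array. Such a fold is not a firm minimum, since other probes went undetected above that lowest signal. Alternatives were 4 scalings, 3 detection rules, 2 size limits and the mean over a gene's probes. Symbols were matched to the RefSeq table of GRCm38.p6, which held 14687 of the 15369 genes. The file names no build, so coordinates are those of the promoter table. A gene of the other synthesis list is not reported here. The calling rule was tested on simulated data. Python 3.11.15, numpy 2.4.6, pandas 2.3.3 and matplotlib 3.10.9 were used.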

Additional observations from a re-analysis of the deposited data

Results flagged for a closer look

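Hsd17b7 differed from B16 in opposite directions on B16-RI and B16-RIIL, at 0.71 and -0.79 log2 units, so that the differences from B16 were 1.497 log2 units apart. With 1 array per line used, the difference was not tested.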

How the results depend on the processing

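No paired analysis was possible because only 1 array per line matched a labelled sample and was used, with no replicate number shared, and for the same reason no replicate was left out. No called value changed sign. Of 209 values of counts and medians under the alternatives, 183 moved little and 26 moved, as did 38 of 180 values of single genes. With the limit at 1.5-fold, the genes called higher and lower than B16 numbered 6 and 3 on B16-RI, 3 higher on B16-RII, and 2 and 5 on B16-RIIL, with 2 lower on B16-RII than on B16-RI and 1 higher and 5 lower on B16-RIIL than on B16-RII. At 4-fold, 0 were lower on B16-RIIL than on B16 and 0 higher on B16-RII than on B16-RI. With detection on all 4 arrays, which drops 1110028A07Rik and Acsl4, 0 were higher on B16-RI, B16-RII and B16-RIIL than on B16, 1 was lower on B16-RIIL, and 0 were higher on B16-RII than on B16-RI. At an S/N of at least 5, 0 were higher on B16-RI than on B16. The ligation and storage genes stood -0.47 log2 units from all genes there, in place of -0.12 under the main rule. The counts at 4-fold, with detection on all 4 arrays and at this S/N lack the share of all genes. They are therefore not compared with it. With the deposited values, 3 were higher on B16-RII and 2 on B16-RIIL than on B16, beside 12.2% and 11.7% of all genes, and 5 were lower on B16-RIIL than on B16-RII, beside 7.58%. Scaling to the array median gave 3, 3 and 5 for the same counts, beside 12.9%, 12.6% and 6.22%. The 75th percentile gave 4 lower on B16-RIIL than on B16, beside 7.93%, and 1 lower than on B16-RII, beside 5.26%, and quantile normalization gave 2 for the latter, beside 5.31%. The cause was not tested, beyond the offset of the probe sets that these scalings keep. The probes of Acsl4, Fdps and Lss, and that of 1110028A07Rik on B16-RI, had a low S/N. Their values call for care, though how precision changes with S/N was not measured.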
